A study of Mus musculus with 9 samples.

Results

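The Rhox genes are a family of homeobox genes that lie side by side on the mouse X chromosome, and 6 of them, Rhox1, Rhox5, Rhox6, Rhox9, Rhox10 and Rhox13, were followed through 9 RNA-seq libraries of spermatogonial stem cells (SSC), of induced pluripotent stem cells made from SSC (SSCiPSC) and of induced pluripotent stem cells made from fetal fibroblasts (fiPSC). They were found by the chromosome, start and end of each locus in the deposited table against GRCm38 gene coordinates, among 54913 loci, from which 24374 annotated genes and pseudogenes had a locus. The annotation holds 42 Rhox genes and pseudogenes, of which 34 are protein coding. A locus touched 12 of them, the 6 members among these, and each member had a locus of its own that no other gene shared. The 6 were picked because Rhox5 stood far higher in SSCiPSC than in SSC while Rhox13 did not, so for every member the comparison of SSCiPSC with SSC is a description of levels and carries no test.

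The study asked how parent-specific DNA methylation (imprinting marks) is erased during reprogramming, and whether the cell of origin affects how reprogramming proceeds. All 3 groups, with 3 libraries each, came from mice that carry a pair of engineered alleles. The allele Gt(ROSA)26Sortm1(rtTA*M2)Jae makes a doxycycline-dependent activator from the Rosa26 locus, and Col1a1tm3(tetO-Pou5f1,-Sox2,-Klf4,-Myc)Jae makes the 4 reprogramming factors under its control, so that SSC carried them too. The SSC were primary cells, at passage 0, of testes of pups at postnatal day 6, enriched with magnetic beads for the surface receptor Gfra1. The SSCiPSC and fiPSC were clonal lines grown from picked colonies on feeder cells, and were enriched with beads for the surface antigen SSEA1 before RNA was taken. The labels give these lines passages 10 to 11 and the methods passages 13 to 14. The growth text of the labels, the same for all 9 libraries, names LIF and doxycycline, whereas the methods say that doxycycline was withdrawn from the lines before these passages. The fibroblasts came from fetuses that were selected as male according to the methods, and were not themselves analysed here. Which animal or line gave which library is not stated in the sources used here, so every p-value below measures only the spread between these libraries.

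Homeobox genes encode transcription factors that bind DNA through a folded domain, the homeodomain, whose last helix lies in the groove of the DNA. The Rhox cluster (reproductive homeobox, X-linked) is known for expression in testis, ovary and placenta. Rhox5, first described as Pem, is used in Sertoli cells of the testis under androgen control from one promoter, and in embryonic stem cells and extraembryonic tissue from another that DNA methylation silences in most somatic cells. Rhox10 and Rhox13 are genes of male germ cells, and Rhox10 is needed to build the pool of SSC. Rhox6 and Rhox9, first described as placenta-specific homeobox genes, are also used in early germ cells and in embryonic stem cells.

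The part of the coding sequence that encodes the DNA-contacting helix shows how close the members are to each other, which matters for how reads can be told apart. It is printed here as 60 coding bases per gene, 5′ to 3′ on the coding strand, from the GENCODE annotation of GRCm38, with capitals for the 17 bases that are the same in all 6 members.
Rhox1: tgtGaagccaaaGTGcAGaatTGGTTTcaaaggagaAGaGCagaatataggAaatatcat
Rhox5: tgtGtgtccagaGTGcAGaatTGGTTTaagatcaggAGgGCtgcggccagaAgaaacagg
Rhox6: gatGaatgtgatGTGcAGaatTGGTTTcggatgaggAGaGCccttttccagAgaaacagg
Rhox9: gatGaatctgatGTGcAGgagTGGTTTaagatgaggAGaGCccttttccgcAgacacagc
Rhox10: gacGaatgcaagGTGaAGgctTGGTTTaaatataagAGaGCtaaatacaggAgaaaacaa
Rhox13: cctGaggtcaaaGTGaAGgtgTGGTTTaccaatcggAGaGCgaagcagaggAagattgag
In all 6 genes an intron lies after base 18 of this stretch, between exons 3 and 4 of Rhox5, Rhox6 and Rhox9, exons 2 and 3 of Rhox10 and Rhox13, and exons 4 and 5 of Rhox1. With its intron the stretch spans chrX:37214006-37215567 for Rhox1 (minus strand), chrX:37806102-37808656 for Rhox5 (plus), chrX:37828443-37829665 for Rhox6 (plus), chrX:37899258-37900297 for Rhox9 (minus), chrX:38069427-38071488 for Rhox10 (plus) and chrX:38123102-38129783 for Rhox13 (plus).

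Rhox6 and Rhox9 stood apart from the other pairs in sequence. They agreed at 51 of these 60 bases, whereas the other pairs agreed at 27 to 38 of them, the lowest count being that of Rhox6 and Rhox13. Over their whole coding sequences, 681 bases in each, Rhox6 and Rhox9 were 90.6% identical. Every other pair of members was identical in 43.1% to 50.2% of alignment columns. Of the windows of 100 bases along the transcripts, 6.81% of those of Rhox6 also occur in Rhox9 and 2.45% of those of Rhox9 also occur in Rhox6, so a small part of the reads of this pair could have been counted for the wrong gene. Rhox1, Rhox5, Rhox10 and Rhox13 shared no such window with any gene in the annotation.

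Along the X chromosome the members are spread over the cluster. The locus of Rhox1 lay at chrX:37213825-37218391 on the minus strand and covered 54.02% of the annotated gene. The loci of Rhox5 (chrX:37804739-37809276) and Rhox6 (chrX:37826846-37829887), both on the plus strand, each covered the whole gene, as did that of Rhox9 (chrX:37899095-37902015, minus strand). The locus of Rhox10 (chrX:38066551-38071668, plus strand) covered 98.1% of its gene and that of Rhox13 (chrX:38121193-38129969, plus strand) all of it. The loci of Rhox10 and Rhox13 are neighbours at one end of the cluster, and those of Rhox5, Rhox6 and Rhox9 lie together nearer the middle, as the map of the cluster shows.

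**Figure D1:**
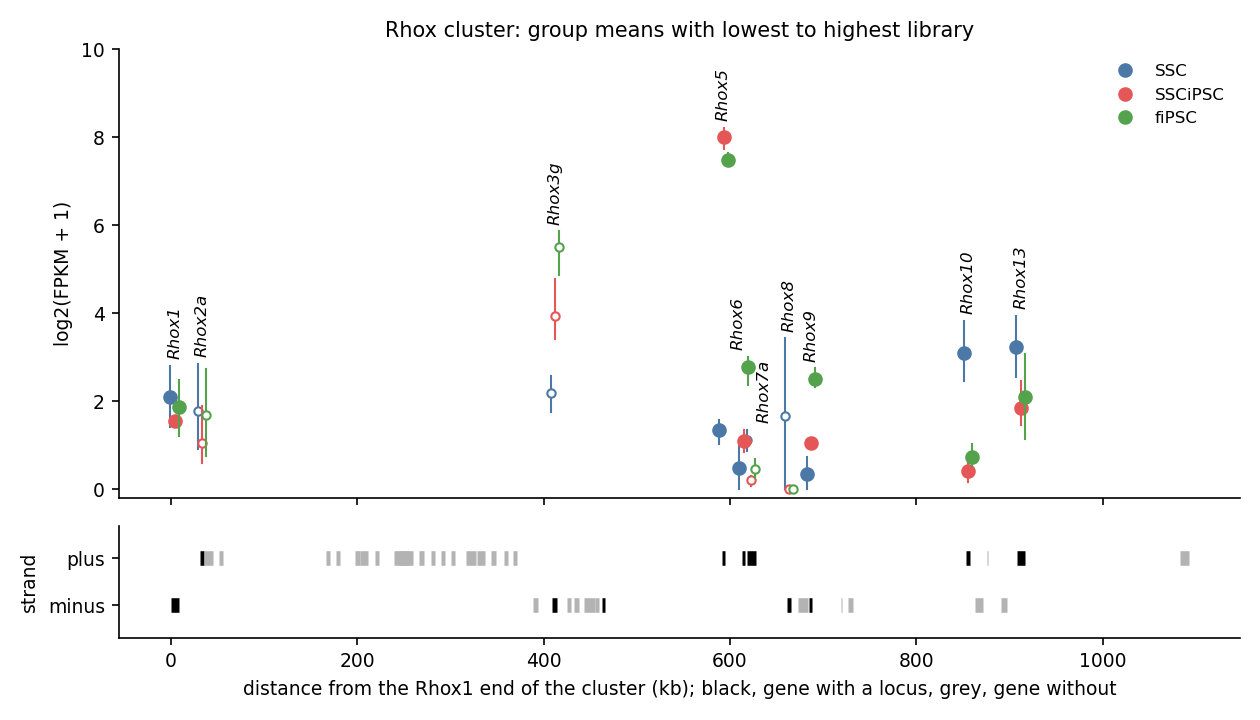
Level of each Rhox locus, as log2(FPKM + 1), against the distance in kb from the Rhox1 end of the cluster, with a point for the mean of 3 libraries per group, a line from the lowest to the highest library, filled points for the 6 members and open points for other Rhox genes. The lower panel draws all 42 annotated Rhox genes and pseudogenes by strand, black where a locus touched them. Rhox5 stands above every other locus in SSCiPSC and fiPSC, and Rhox10 and Rhox13 are the members whose SSC point lies highest.

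The values are FPKM, fragments per kilobase of transcript and per 1000000 fragments, so levels can be compared between genes. The depth behind them differed by group. In units of 1000000 fragments, the estimated depth was 1.77, 4.62 and 1.38 in SSC replicates 1, 2 and 3, it was 15.8, 13.7 and 15.0 in SSCiPSC, and it was 13.3, 17.6 and 15.4 in fiPSC. A low level in SSC therefore rests on a handful of fragments, and the estimated number of fragments is given beside such values of the members. Intervals and floors built on these numbers cover counting error only.

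Before the members are described, the labels were checked against marker genes. Of 14 spermatogonial markers all 14 had at least 1 FPKM in each SSC library, led by Dazl, an RNA-binding protein of germ cells, at 210.1 ± 46.8 FPKM (SD, n = 3), and Gfra1 itself stood at 37.7, 34.1 and 23.9 FPKM in SSC and at no more than 0.171 FPKM in any iPSC library. By its sum the list did not separate SSC from SSCiPSC. In each iPSC library 10 or 11 of the 14 markers had at least 1 FPKM, and the list summed to 725, 878 and 604 FPKM in SSC, 396, 643 and 448 FPKM in SSCiPSC and 384, 351 and 454 FPKM in fiPSC, so that SSCiPSC replicate 2 lay above SSC replicate 3. With limma on log2(FPKM + 1) at an adjusted p of 0.05, 9 of the 14 fell in SSCiPSC and 4 rose, where 24.1% of all loci fell and 26.2% rose. The 4 were Etv5, from 32.8 to 122.8 FPKM on average, Sall4, from 37.2 to 95.4 FPKM, Lin28a, from 40.6 to 96.1 FPKM, and Kit, a receptor of differentiating spermatogonia, from 13.1 to 48.6 FPKM. The split of all loci depended on single libraries, with 9582 higher and 8814 lower in all, 9012 and 4101 without SSC replicate 1, and 4761 and 6596 without SSCiPSC replicate 3. The SSC libraries also held RNA of other testis cells. The 12 Sertoli cell markers summed to 1477, 1530 and 1167 FPKM in SSC replicates 1, 2 and 3, with Clu, a secreted chaperone, the most abundant at 632 ± 88.1 FPKM, and the 7 Leydig cell markers summed to 1051, 632 and 1321 FPKM, led by Star, which feeds cholesterol into steroid synthesis, at 635 ± 203 FPKM. In the 6 iPSC libraries the Sertoli list summed to 24.5 to 30.1 FPKM, and 4 of its 12 genes, Sox9, Fshr, Cst12 and Cst9, were at 0 in all of them. Another 4 stood above 1 FPKM in all of them, Amh at 5.73 to 9.69 FPKM, Amhr2 at 5.16 to 8.95 FPKM, Aard at 4.24 to 9.25 FPKM and Clu at 2.87 to 6.91 FPKM, each below its lowest SSC library, and the remaining 4 were at no more than 1.26 FPKM. The locus of Amh covers 3 genes, so its level is not that of Amh alone. The loci of Kit, Star, Sox9 and Fshr have no strand assigned. Each is the most abundant of several loci of its gene, so its level may not be that of the whole gene. The 7 fibroblast or feeder markers were highest in SSC replicate 3, at 317 FPKM, against 107 and 98.2 FPKM in the other SSC libraries. The 10 pluripotency markers summed to 3494 to 4121 FPKM in SSCiPSC and 3000 to 3287 FPKM in fiPSC, against 17.8 to 36.9 FPKM in SSC. In such bulk samples fewer cells of a type and less RNA per cell cannot be told apart, and the part of Sertoli and Leydig RNA in the SSC levels of the Rhox genes was not tested.

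**Figure D2:**
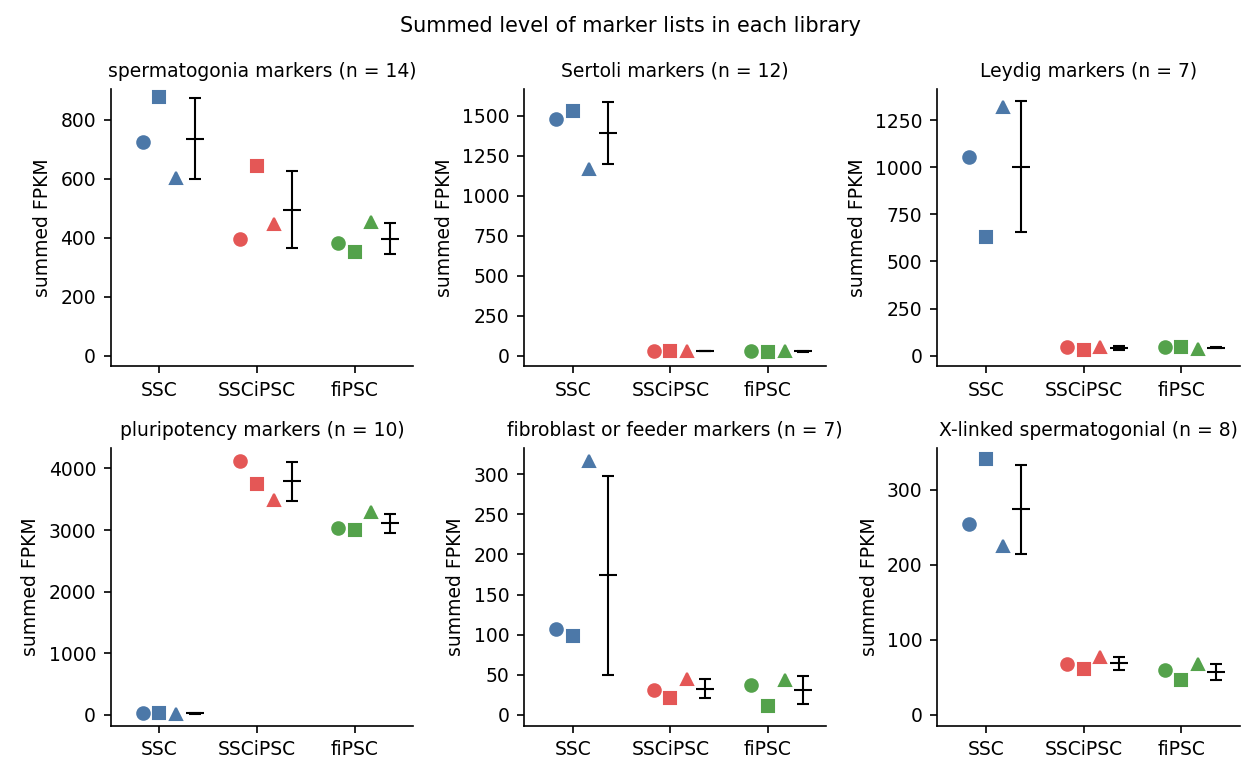
Summed FPKM of 6 gene lists in each library, with circles, squares and triangles for replicates 1, 2 and 3 and the mean ± SD of 3 libraries beside them. The Sertoli and Leydig lists are high in the 3 SSC libraries alone, the pluripotency list in the 6 iPSC libraries alone, and fiPSC replicate 2 has the lowest sum of fibroblast or feeder markers, at 10.9 FPKM.

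Among the 6 members, Rhox5 carried most of the RNA of the iPSC and little of that of SSC. It stood at 1.03, 1.77 and 1.98 FPKM in SSC replicates 1, 2 and 3. In SSCiPSC it stood at 296, 211 and 272 FPKM, and in fiPSC at 162, 172 and 197 FPKM. No library of one group overlapped with another group, and the order was SSC, then fiPSC, then SSCiPSC. The group means were 1.59 ± 0.498 FPKM in SSC, 259.8 ± 43.4 FPKM in SSCiPSC and 177 ± 18.1 FPKM in fiPSC (SD, n = 3).

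The SSC values of Rhox5 came from an estimated 2, 9 and 3 fragments, against 3203 to 5135 fragments per library in SSCiPSC and 2375 to 3344 in fiPSC. With the fragments of each group pooled, the level in SSCiPSC was 159.7 times that in SSC. The same ratio for fiPSC, which is set against the same SSC libraries, was 108. Both describe values on which the members were picked. With 1 FPKM added before the logarithm, a scale that shrinks the change of low genes, the log2 differences from SSC were 6.66 for SSCiPSC and 6.12 for fiPSC. By its mean level Rhox5 ranked 421 of 17829 named loci in SSCiPSC, 596 in fiPSC and 13504 in SSC.

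**Figure D3:**
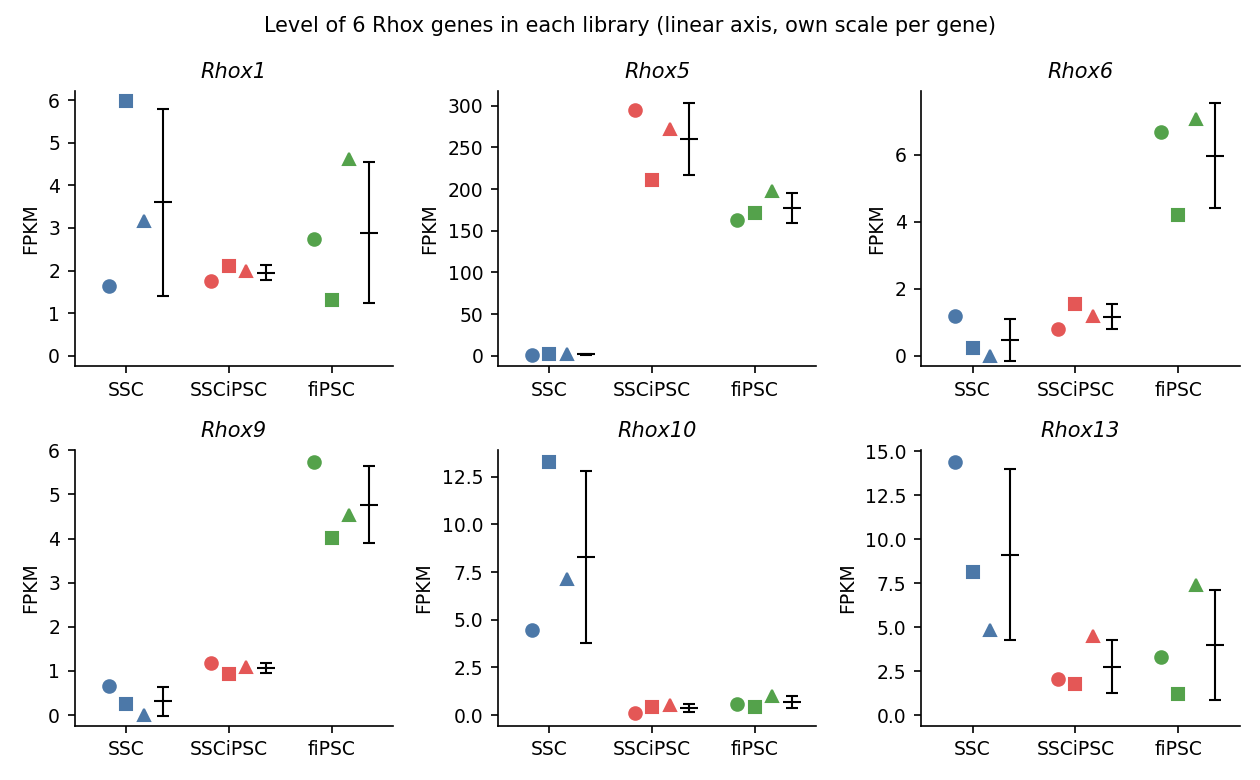
FPKM of the 6 members in each library on a linear axis from 0, scaled for each gene, with circles, squares and triangles for replicates 1, 2 and 3 and the mean ± SD of 3 libraries beside them. Rhox5 is near 0 in SSC and between 162 and 296 FPKM in the iPSC, Rhox6 and Rhox9 are highest in fiPSC, and Rhox10 and Rhox13 are highest in SSC.

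Rhox10 was highest in SSC. This germ cell gene stood at 4.47, 13.3 and 7.15 FPKM in SSC, from an estimated 4, 31 and 5 fragments. In SSCiPSC it stood at 0.125, 0.426 and 0.514 FPKM, from 1, 3 and 4 fragments, and in fiPSC at 0.592, 0.445 and 1.03 FPKM, from 4, 4 and 8 fragments. Every SSC library was above every iPSC library, and SSCiPSC and fiPSC overlapped. The mean in SSCiPSC was 0.0428 times that in SSC and the mean in fiPSC 0.0829 times.

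Rhox13, the other germ cell gene, was also highest in SSC, but by a smaller margin. It stood at 14.4, 8.12 and 4.85 FPKM in SSC, at 2.03, 1.74 and 4.48 FPKM in SSCiPSC and at 3.32, 1.21 and 7.39 FPKM in fiPSC. The lowest SSC library was just above the highest SSCiPSC library, whereas fiPSC replicate 3 lay inside the range of SSC. The means were 9.13 ± 4.86, 2.75 ± 1.502 and 3.97 ± 3.14 FPKM in SSC, SSCiPSC and fiPSC. The SD of Rhox13 was over 50% of its mean in every group, and the SSC values rested on an estimated 19, 28 and 5 fragments, so a difference between its iPSC groups was within the spread.

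Rhox6 and Rhox9, the near copies, both stood highest in fiPSC. Rhox6 stood at 1.20, 0.229 and 0 FPKM in SSC, from an estimated 2, 1 and 0 fragments. It stood at 0.802, 1.53 and 1.18 FPKM in SSCiPSC and at 6.67, 4.19 and 7.06 FPKM in fiPSC, so that fiPSC overlapped with neither other group while SSC and SSCiPSC overlapped. A count of 0 in SSC replicate 3 allows a level of up to 2.29 FPKM (3 fragments), which is above all 3 SSCiPSC values, and a difference between SSC and SSCiPSC was not detectable at this depth. The pooled level in fiPSC was 14.3 times that in SSC, with an exact 95% interval from 4.85 to 70.0 that is wide because SSC had 3 fragments in all.

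Rhox9 stood at 0.668, 0.256 and 0 FPKM in SSC, at 1.17, 0.942 and 1.09 FPKM in SSCiPSC and at 5.73, 4.02 and 4.54 FPKM in fiPSC. The 3 groups did not overlap. The SSC values correspond to about 3, 3 and 0 fragments by the longest annotated transcript, because no transcript length gave whole fragments for this locus, and the 0 in replicate 3 allows up to about 0.958 FPKM, which is above 1 of the 3 SSCiPSC values. Over the 9 libraries the correlation of log2(FPKM + 1) of Rhox6 and Rhox9 was 0.98 (Pearson), the highest of the 15 pairs of members. It is a description over 3 groups of libraries that differ in depth. The next in size was negative, between Rhox5 and Rhox10, at -0.95.

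Rhox1 was the member whose groups overlapped in every comparison. It stood at 1.65, 5.99 and 3.16 FPKM in SSC, from an estimated 2, 19 and 3 fragments, at 1.75, 2.103 and 1.999 FPKM in SSCiPSC and at 2.73, 1.32 and 4.63 FPKM in fiPSC. The SSCiPSC libraries lay close together (SD 0.183 FPKM), while the SD was 2.202 FPKM in SSC and 1.66 FPKM in fiPSC.

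Read along a library, the family changed its leading member between SSC and iPSC. The 6 members summed to 23.4, 29.6 and 17.1 FPKM in SSC, where Rhox13 led in replicate 1 with 61.5% of the sum and Rhox10 led in replicates 2 and 3 with 44.8% and 41.7%. They summed to 301, 218 and 282 FPKM in SSCiPSC, of which Rhox5 made up 98.0%, 96.9% and 96.7%. In fiPSC the sums were 181, 183 and 222 FPKM and the shares of Rhox5 89.5%, 93.9% and 88.9%. Other Rhox loci are outside these sums, among them the one inside Rhox3g, at 28.4 to 57.0 FPKM in fiPSC. The replicates of fiPSC also differed among themselves in a like way for several members. Replicate 2 had the lowest value of its group for 5 of the 6 members and replicate 3 the highest for 5 of the 6, Rhox5 being the lowest in replicate 1 and Rhox9 the highest there. The FPKM of all loci summed to 1.27e+06, 1.11e+06 and 1.42e+06 in fiPSC replicates 1, 2 and 3, so the libraries as a whole had this order too. The share of all loci with this order was not worked out, and nothing is read from these counts about the members. In the same libraries the summed fibroblast or feeder markers were 37.6, 10.9 and 44.1 FPKM in replicates 1, 2 and 3. In SSCiPSC they were 31.7, 21.4 and 45.4 FPKM, and replicate 2 was there the lowest for Rhox5, Rhox9 and Rhox13 and the highest for Rhox1 and Rhox6. Their part in the Rhox levels was not tested.

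The comparison of fiPSC with SSCiPSC asks whether the Rhox genes differ by cell of origin once both are iPSC, and the choice of members did not rest on it. Cell of origin cannot be told apart here from the donor animal and its age, fetuses for fiPSC and pups for SSCiPSC. It shares the SSCiPSC libraries with the comparison on which Rhox5 was picked, so the Rhox5 difference is not free of that choice. No member passed the test. With limma on log2(FPKM + 1) and Benjamini-Hochberg adjustment over 33948 loci, 23 loci passed an adjusted p of 0.05, or 0.0678% of those tested, and 0 of the 5 members tested were among them. Rhox10 did not reach 1 FPKM in 3 of the 6 libraries and was not tested. Rhox6 and Rhox9 met that filter with 3 fiPSC and 2 SSCiPSC libraries each, so they entered through the group in which they were high. Rhox5, Rhox6 and Rhox9 had an unadjusted p under 0.05, as did 11.7% of all loci, and since Rhox5 was picked on its SSCiPSC values and the other two are near copies that entered in this way, nothing is read from their number.

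Rhox9 and Rhox6 were the nearest to the threshold. Rhox9 was 1.47 higher in fiPSC on the log2 scale (SE 0.19, limma adjusted p = 0.0839), a ratio of means of 4.47, and ranked 37 of all loci by its p. Rhox6 was 1.67 higher (SE 0.24, limma adjusted p = 0.110), a ratio of means of 5.10, and ranked 62 of them. Rhox5 went the other way, 0.54 lower in fiPSC on the log2 scale (SE 0.15, limma adjusted p = 0.289), with a ratio of means of 0.682. For these 3 genes the groups did not overlap, which held for 18.6% of all loci tested and is read no further for the same reasons, and the exact two-sided permutation test gave p = 0.1, the smallest that 3 libraries against 3 allow.

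The other members gave no such separation. Rhox1 differed by 0.31 (SE 0.32, limma adjusted p = 0.753) and Rhox13 by 0.27 (SE 0.50, limma adjusted p = 0.877), both groups overlapping, and without fiPSC replicate 3 these differences were -0.0034 and -0.21. Rhox10 differed by 0.31 when no filter on low values was used (SE 0.18, limma adjusted p = 0.582). Set side by side, the differences from SSC on the log2(FPKM + 1) scale were, for SSCiPSC and then fiPSC, 6.66 and 6.12 for Rhox5, 0.63 and 2.30 for Rhox6, 0.69 and 2.16 for Rhox9, -2.68 and -2.36 for Rhox10, -1.39 and -1.12 for Rhox13, and -0.53 and -0.22 for Rhox1. Both columns use the same SSC libraries. For SSCiPSC against SSC, 5 members passed the filter on low values, and 3 of them (Rhox5, Rhox10 and Rhox13) had groups that did not overlap, where 59.8% of all loci tested did. Rhox9, whose groups did not overlap either, was outside the filter there. The choice of members rests on this comparison.

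**Figure D4:**
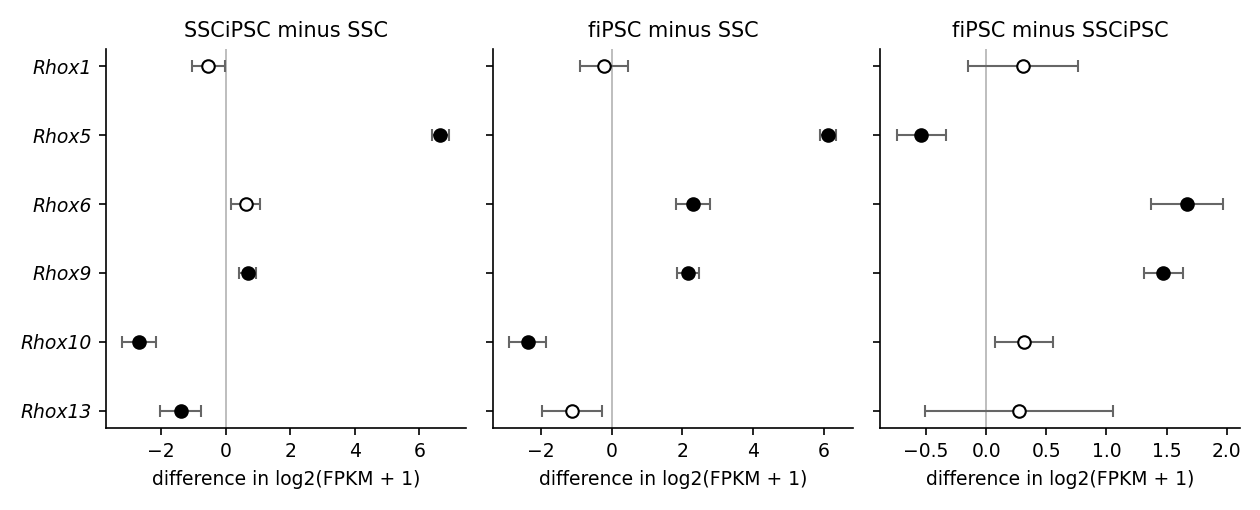
Difference between group means of log2(FPKM + 1) for the 6 members in the 3 comparisons, each panel with its own axis, with bars of 1 pooled SD over the libraries of both groups and filled points where the groups did not overlap. Rhox6 and Rhox9 lie above 0 and Rhox5 below 0 in fiPSC minus SSCiPSC, while the bars of Rhox1 and Rhox13 cross 0 there.

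Of the other 36 Rhox genes and pseudogenes, 6 had a locus, and 4 of these were tested in fiPSC against SSCiPSC, with 0 past the adjusted threshold and 1 at an unadjusted limma p of 0.05, where 0.0678% and 11.7% of all loci were. Rhox7-ps2 and Rhox2-ps, both among the 4, share 1 locus, so that locus is counted more than once beside the shares of all loci. In SSCiPSC against SSC the same 4 were tested and 1 rose, where 26.2% of all loci did, while Rhox2a (limma adjusted p = 0.352) and the locus shared by Rhox7-ps2 and Rhox2-ps (0.872) did not pass. The same locus was the one in both counts, a stretch of 465 bases at chrX:37625645-37626109, with no strand assigned, inside Rhox3g. It covered 8.78% of that gene, so it is named by its place only, and 40.3% of the windows of Rhox3g transcripts occur in other Rhox3 copies. It stood at 3.69, 4.93 and 2.36 FPKM in SSC, at 9.64, 26.7 and 11.0 FPKM in SSCiPSC and at 54.6, 28.4 and 57.0 FPKM in fiPSC. The groups did not overlap, and after Rhox5 it was the highest Rhox locus in the iPSC. It was 1.75 higher in SSCiPSC than in SSC on the log2 scale (SE 0.42, limma adjusted p = 0.0140) and 1.58 higher in fiPSC than in SSCiPSC (SE 0.41, adjusted p = 0.259). The SSC values rested on an estimated 2, 7 and 1 fragments.

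Rhox8, which in the adult testis is a Sertoli cell gene, stood at 1.96, 9.77 and 0 FPKM in SSC and at 0 in all 6 iPSC libraries. The SSC values came from an estimated 4, 47 and 0 fragments. By its longest annotated transcript a count of 0 allows up to 2.07 FPKM in SSC replicate 3 and no more than 0.215 FPKM in any iPSC library. The Sertoli markers summed to 1477, 1530 and 1167 FPKM in the same SSC libraries, and the part of Sertoli RNA in the Rhox8 levels was not tested. A locus over 34.9% of Rhox7a was low throughout. It stood at 0.813, 1.24 and 1.56 FPKM in SSC, from an estimated 2, 8 and 3 fragments, and at most 0.606 FPKM in iPSC. Rhox2a, at chrX:37244973-37249689, was highest in replicate 3 of every group, with 6.19 FPKM in SSC, 2.68 FPKM in SSCiPSC and 5.63 FPKM in fiPSC. Its SSC values rested on about 1, 6 and 5 fragments, and 66.4% of its windows occur in other Rhox2 copies, so its reads are uncertain. Over the interval of the pseudogenes Rhox7-ps2 and Rhox2-ps a plus-strand and a minus-strand locus shared the same ends. The minus-strand locus, which both pseudogenes share, stood between 1.26 and 2.79 FPKM in all 9 libraries. The remaining 30 genes had no locus, 23 of them copies of Rhox2, Rhox3 and Rhox4.

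**Figure D5:**
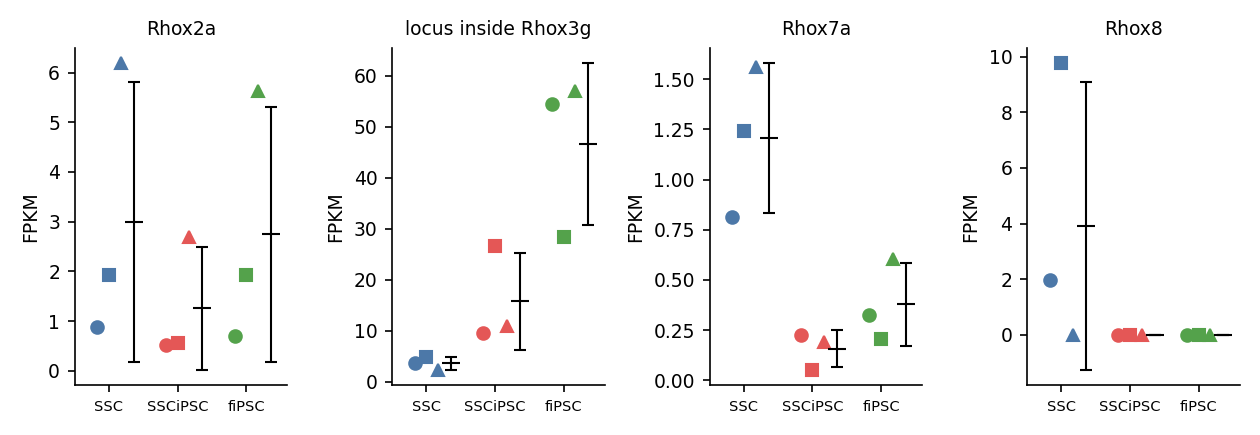
FPKM of 4 further Rhox loci in each library, with circles, squares and triangles for replicates 1, 2 and 3 and the mean ± SD of 3 libraries beside them. The locus inside Rhox3g lies between 2.36 and 4.93 FPKM in SSC and between 28.4 and 57.0 FPKM in fiPSC, Rhox8 is above 0 in 2 SSC libraries, and Rhox2a is highest in replicate 3 of each group.

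Of 21 genes known to act on Rhox5 or on DNA methylation and chromatin, all were tested in SSCiPSC against SSC. With limma, 11 rose and 3 fell in SSCiPSC at an adjusted p of 0.05, where 26.2% of all loci rose and 24.1% fell, and their median log2 difference was 0.81 against 0.11 over all loci. Gabpa, the DNA-binding part of a factor known to drive Rhox5 in embryonic stem cells, stood at 25.4, 30.3 and 25.5 FPKM in SSC, 79.0, 75.8 and 72.8 FPKM in SSCiPSC and 60.9, 60.6 and 58.5 FPKM in fiPSC. It rose by 1.46 on the log2 scale in SSCiPSC (SE 0.13, limma adjusted p = 0.00029), and its difference between fiPSC and SSCiPSC did not pass (-0.33, SE 0.094, limma adjusted p = 0.288). The 4 most abundant were Trim28, a co-repressor, which rose from 129 ± 17.2 FPKM in SSC to 703 ± 291 FPKM in SSCiPSC (log2 difference 2.36, SE 0.30, limma adjusted p = 0.000963), Hells, a chromatin remodeller, Tet1, a methylcytosine dioxygenase, and Uhrf1, which brings Dnmt1 to newly copied DNA. The locus of Hells covers 3 genes. Tet1, by the most abundant of its 13 loci, one with no strand assigned, stood at 0, 2.40 and 0 FPKM in SSC and at 243, 229.6 and 256 FPKM in SSCiPSC, and Uhrf1 rose by 2.31 on the log2 scale (SE 0.20, limma adjusted p = 0.000262). In fiPSC against SSCiPSC, 0 of 19 regulators tested passed and 2 had an unadjusted limma p under 0.05, where 11.7% of all loci did.

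Unc5c, a netrin receptor gene known to be repressed by Rhox5 in Sertoli cells, could not be followed. The locus over it, which covers 3 genes and has no strand, stood at 0.746 FPKM in SSC replicate 2 and at 0 in the other 8 libraries. Of 37 other homeobox genes of the same broad class (paired-like), 19 had a locus and 8 were tested in SSCiPSC against SSC, of which 5 rose and 2 fell, beside 26.2% and 24.1% of all loci. Among the most abundant were Otx2 and Hesx1, factors of early neural and pituitary development. Otx2 stood at 0.186 ± 0.322 FPKM in SSC, 21.0 ± 3.61 FPKM in SSCiPSC and 32.5 ± 7.19 FPKM in fiPSC, and Hesx1 at 0.318 ± 0.348, 22.5 ± 11.6 and 10.9 ± 0.962 FPKM. Obox6, another of them, stood at 0 in all SSC libraries and at 9.56, 9.98 and 4.32 FPKM in SSCiPSC and 1.97 to 2.43 FPKM in fiPSC. In the same list 0 of 8 genes tested passed in fiPSC against SSCiPSC, with 3 at an unadjusted limma p under 0.05, beside 11.7% of all loci. By mean FPKM, Rhox5 was above every one of these 19 genes in both kinds of iPSC.

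Most other X-linked genes of spermatogonia fell in SSCiPSC. Of 9 such genes 8 had a locus and were tested in SSCiPSC against SSC, and 7 fell and 1 rose, where 24.1% of all loci fell and 26.2% rose. Among those that fell, the loci of Tex16, Pramel3 and Magea5 cover 3, 9 and 3 genes, so their levels are not those of 1 gene each. Taf7l, a germ cell form of a general transcription factor subunit, fell from 115 ± 21.4 FPKM in SSC to 1.24 ± 0.451 FPKM in SSCiPSC (log2 difference -5.71, SE 0.22, limma adjusted p = 3.53e-05). Nxf2, an RNA export factor, fell by 5.495 and Tktl1 by 3.76 on the same scale. Usp26, a deubiquitinase gene, was the one that rose, from 33.3 ± 5.42 to 56.1 ± 4.83 FPKM (log2 difference 0.74, SE 0.16, limma adjusted p = 0.00823).

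Genes on either side of the cluster went in both directions, in shares near those of all loci. Within 1000000 bases of the cluster lie 29 protein-coding genes that are not Rhox genes, 22 with a locus. Of 21 tested in SSCiPSC against SSC 6 rose and 4 fell, where 26.2% of all loci rose and 24.1% fell, and their median log2 difference was 0.08 against 0.11 over all loci. Of 18 tested in fiPSC against SSCiPSC 0 passed, with 2 at an unadjusted limma p under 0.05, where 11.7% of all loci had one. The nearest with a locus before Rhox1 was Gm9, 2.76 kb away, at 3.18 ± 0.152 FPKM in SSC and 1.69 ± 0.462 FPKM in SSCiPSC (limma adjusted p = 0.0717). Ndufa1, a subunit of respiratory complex I, lay 22.6 kb away and rose from 7.32 ± 2.33 to 15.5 ± 0.696 FPKM (log2 difference 1.03, SE 0.26, limma adjusted p = 0.0153), and Nkap, 63.1 kb away, stood at 10.8 ± 3.27 and 15.7 ± 0.520 FPKM (adjusted p = 0.0904). Beyond Rhox13 the nearest were Zbtb33, whose locus covers 3 genes and was not tested, Tmem255a, and Lamp2, a lysosomal membrane protein. Tmem255a, 66.6 kb away, fell from 5.16 ± 2.11 to 0.107 ± 0.102 FPKM (log2 difference -2.42, SE 0.31, limma adjusted p = 0.00105). The 2 protein-coding genes inside the cluster that are not Rhox genes had no locus.

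The genes whose levels followed a member most closely were sought among 8096 protein-coding genes with a locus of their own, by the Pearson correlation of log2(FPKM + 1) over the 9 libraries. For Rhox5, Fbxo15, Nanog, Odf2 and Xrcc5 were among the closest, each with a correlation of 0.998. Nanog, a core pluripotency factor, was at 0 in all SSC libraries and at 455 and 281 FPKM on average in SSCiPSC and fiPSC, and Fbxo15 at 2.82, 170.3 and 120.04 FPKM in SSC, SSCiPSC and fiPSC. For Rhox10 they were Vav3 and Zfp768 (0.989 and 0.987), both lower in iPSC than in SSC. For Rhox9 the closest was Rhox6 (0.975), ahead of Eps8l2 (0.964), while for Rhox6 it was Bace1 (0.985) and then Rhox9. For Rhox13 they were Rsrp1 and Pkd2l1 (0.917 and 0.909), and for Rhox1 Chst12 and Aptx (0.836 and 0.817). Such values describe 3 groups of libraries and not independent points.

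The RefSeq promoters used here, 250 bases before to 50 after a start site on GRCm38.p6, held 4 of the members, Rhox1, Rhox5, Rhox10 and Rhox13. The start sites lay 76 bases from the start of the locus for Rhox10 and 353 bases for Rhox13, but 3867 bases for Rhox1 and 50131 bases for Rhox5, so that the promoter listed for Rhox5 is not at the start of the locus measured here. The Rhox10 promoter had 9 CG dinucleotides and the Rhox13 promoter 5, against a median of 7 over all promoters in the table. The letters GGAA, the core bound by the ETS factors to which Gabpa belongs, were searched on both strands and occurred 4 times in the Rhox10 promoter and 2 times in that of Rhox13, and 96.0% of all promoters hold them at least once.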

How the data were processed

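The 9 RNA-seq libraries were assigned to SSC, SSCiPSC or fiPSC (3 each) from the cell source in their labels. The authors aligned paired reads with TopHat and assembled and quantified loci with Cufflinks, and the deposited values are FPKM, 1 per locus and library. The submitters' processing notes name Trimmomatic 0.32, TopHat2 2.0.9, Bowtie2 2.1.0, Cufflinks 2.2.1 and the build mm9. The coordinates are those of GRCm38: 2979 of 16363 stranded loci had both ends within 300 bases of a protein-coding gene, and 2 had when shifted by 1000000 bases. Within a chromosome the table lists plus, minus and unstranded loci in turn, which gave the strand. Of 54914 loci 1 with a blank value was left out. A deposited summary of feature numbers was not used.

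A locus was named for a gene when it covered at least 50% of the gene or lay at least 50% inside it on the same strand or on none, and of several the one with the highest mean was taken. The mean was over all libraries, more of them iPSC than SSC, so this choice can favour loci that are high in iPSC. The shares over all loci involve no such choice and include unstranded loci, 70.2% of the loci used. Counts in gene lists are therefore not like for like with these shares. Fragments were estimated from the low values, which are whole multiples of the value of 1 fragment (at least 99.9% of low values in each library). For a member, the transcript length was chosen that made its low values whole.

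A pseudocount of 1 FPKM was added and log2 values were tested with limma 3.58.1 (R 4.3.3; lmFit and trended eBayes), 6 libraries per comparison. Loci entered when 3 or more of the 6 had 1 FPKM or more. P-values were adjusted over all loci entered (Benjamini-Hochberg, threshold 0.05). The fit was tested on simulated data. Single values were compared with exact permutation tests (scipy 1.17.1), and sequences were aligned with Biopython 1.88. The figures were drawn with matplotlib 3.10.9. The 95% interval of the Rhox6 ratio of pooled fragments is exact (Clopper-Pearson) and covers counting error only.

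Named are the 6 members, every other Rhox gene with a locus, of the protein-coding genes within 1000000 bases the 3 nearest on each side, of each gene list at most the 4 most abundant, and the 5 (Rhox5) or 2 (other members) genes with the most similar levels. Some genes that meet this rule are not reported here. Genes outside this rule, such as Gabpa, Gfra1, Kit, Sall4, Sox9, Fshr, Amh and Amhr2, were chosen after their values were seen. The members and lists were chosen with earlier results of these data known. Alternatives were a pseudocount of 0.1, no filter, median-ratio scaling, quantile normalization, the replicate number as a block, 1 fit over all 9 libraries, untrended eBayes, each library left out, all loci of a gene summed, and a reciprocal overlap of 50%.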

Additional observations from a re-analysis of the deposited data

How the results depend on the processing

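No alternative brought a member past the threshold in fiPSC against SSCiPSC, and the lowest adjusted p over 13 alternatives was 0.0578, for Rhox9 by limma without a trend. Rhox5, Rhox6 and Rhox9 kept their direction in all 13, with log2 differences of -0.68 to -0.41, 1.54 to 2.26 and 1.35 to 2.05. Without fiPSC replicate 3, Rhox1 went from 0.31 to -0.0034 and Rhox13 from 0.27 to -0.21, and over all libraries left out in turn these ranged up to 0.64 and 0.75. The fiPSC against SSCiPSC count was 23 of 33948 loci, and 11 of 40404 with all 9 libraries in the fit, which changed the loci tested as well. With the replicate number as a block it fell to 6, and with the block no member passed. Same-numbered libraries did not deviate together (correlations from -0.236 to 0.0214 over the 9 pairs), while other-numbered ones ranged from -0.134 to 0.196. A weak pairing could go unseen in such correlations, so whether the numbers pair the libraries is not known. The count was 3, 7 and 5 without fiPSC replicate 1, 2 or 3 and 10, 4 and 2 without SSCiPSC replicate 1, 2 or 3, fits with fewer samples. The SSCiPSC against SSC count of 18396 loci was 12184, 11672 and 11357 without SSCiPSC replicate 1, 2 or 3 and 13113 to 13901 without an SSC library. Its split into 9582 higher and 8814 lower became 11108 and 7687 with median-ratio scaling, 9012 to 9487 and 4101 to 4710 without an SSC library, and 4761 to 5204 and 6596 to 6980 without an SSCiPSC library. Median-ratio scaling moved the median log2 difference of all loci in that comparison from 0.11 to 0.29. Each member had 1 locus, so summing all loci of a gene could not change its level, and with a reciprocal overlap of 50% all 6 still had a locus. The depth of SSC limits every SSC level under 3 fragments.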
